A study of Mus musculus with 6 samples.

Results

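The proteasome genes described here are the 45 genes, of 10520 in the deposited table of counts, whose symbol begins with Psma, Psmb, Psmc, Psmd, Psme, Psmf or Psmg followed by a number. Psmb8, Psmb9 and Psmb10, the subunits of the immunoproteasome, were kept apart and are used only for comparison. The cells were E0771, a mouse breast adenocarcinoma line from the C57BL/6 strain, and their RNA was measured by bulk MARS-seq, in which the 3' ends of polyadenylated RNA are counted through unique molecular identifiers (UMIs) that mark each captured molecule once. In 3 libraries (shControl) the cells carried the pLKO.5-puro lentiviral vector without an shRNA insert, and in the other 3 (shLmna) they carried a lamin A/C shRNA in that vector, which the sample titles call shRNA4. Cells of both groups had been transduced and selected in puromycin and neither group had a further treatment, so an effect of expressing any shRNA cannot be told apart from an effect of lamin A/C loss, and only 1 shRNA against lamin A/C was used. The labels do not say that the replicates came from separate cultures, so the p-values measure only the spread between these libraries, which may be technical.

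The libraries held 1846208 to 3242051 UMIs. All 6 were on plate 3, shControl at positions 13 to 15 and shLmna at positions 16 to 18, so that plate position and group cannot be told apart. Levels are given as CPM, which is UMIs per 1000000 of the library total after TMM scaling, and groups were compared by edgeR's quasi-likelihood test over 8969 genes that passed a filter on low counts, with Benjamini-Hochberg adjustment over all of them. A gene is said to have risen or fallen where its adjusted p was below 0.05. Lmna, the targeted gene, had 870 ± 61.9 CPM in shControl and 380 ± 6.59 CPM in shLmna (SD, n = 3), a log2 fold change of -1.20 with a standard error of 0.13 (adjusted p = 3.5e-05, edgeR). Of the carcinoma markers, 3 of 6 were in the table, and the keratin Krt8 had 275 ± 27.3 CPM in shControl and 290 ± 15.4 CPM in shLmna. The other measured carcinoma markers were low: Krt18 had a log2 fold change of -0.53 (SE 0.43, adjusted p = 0.45), and Epcam had 13.2 to 14.3 CPM in shControl and 4.24 to 11.7 CPM in shLmna, groups that did not overlap (-0.90, SE 0.34, adjusted p = 0.091), and neither passed the test.

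The 26S proteasome degrades proteins that carry ubiquitin chains. Its 20S core is a barrel in which rings of alpha subunits gate the entrance and rings of beta subunits hold the proteolytic sites, while the 19S cap, made of a base with ATPases and a lid with the deubiquitinase Psmd14, recognizes, unfolds and feeds in the substrate. The core can instead be capped by activators that need no ATP: the PA28 alpha and beta subunits (Psme1 and Psme2), known from antigen processing and interferon responses, the nuclear PA28 gamma (Psme3), and PA200 (Psme4), which is known from the degradation of acetylated histones in spermatogenesis and from DNA repair. Dedicated chaperones assemble the core (Psmg1 to Psmg4 and Pomp) and the base (Psmd5, Psmd9 and Psmd10). The subunit genes are known to be induced together, when proteasome activity is short, by the transcription factor NRF1 (gene Nfe2l1), which binds antioxidant-response elements with the core TGACNNNGC.

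The start regions of Psme4, Psmb5 and Psmb6 are shown because they are the tested proteasome genes with that core close to the annotated start, and because their RNA levels behaved differently in the comparison. Each line holds the gene strand 5' to 3' from 100 bases before the RefSeq start (GRCm38.p6) to 29 bases after it, with TGACNNNGC, or its reverse complement, in capitals.
Psme4, chr11:30771675-30771804 (+ strand): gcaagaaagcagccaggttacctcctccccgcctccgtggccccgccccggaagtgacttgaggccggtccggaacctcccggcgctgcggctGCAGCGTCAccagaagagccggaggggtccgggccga
Psmb5, chr14:54617966-54618095 (- strand): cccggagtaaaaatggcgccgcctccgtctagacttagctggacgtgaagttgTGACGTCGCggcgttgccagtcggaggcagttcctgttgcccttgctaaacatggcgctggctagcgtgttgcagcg
Psmb6, chr11:70525257-70525386 (+ strand): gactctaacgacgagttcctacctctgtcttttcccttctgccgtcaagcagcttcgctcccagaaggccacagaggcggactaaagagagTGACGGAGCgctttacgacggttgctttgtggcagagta
The first printed base of the core lay 7 bases before the start of Psme4, where the core was on the opposite strand and ran over the start base. It lay 47 bases before the start of Psmb5 and 9 bases before that of Psmb6. TGACNNNGC was searched on both strands from 250 bases before to 50 bases after the start. It was present for 6 of the 38 proteasome genes that had a promoter entry (15.8%) and for 3781 of 27025 genes in the RefSeq table (13.99%). The other 3 were Psmd9, Psmc6 and Psmd12. CCAAT, the box bound by NF-Y, was found for 13 of the 38 (34.2%) and for 11096 of the 27025 (41.1%). Beside this, the RNA of Psme4 was 15.9-fold higher in shLmna, while the log2 fold changes of Psmb5 and Psmb6 were -0.08 ± 0.20 and -0.19 ± 0.15 (SE) and neither passed the test. Psmc6 and Psmd12, which also hold the core, were at -0.55 ± 0.21 and -0.16 ± 0.15 and did not pass, and Psmd9 was not tested. A link between the core and these levels was not tested.

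Psme4 was the proteasome gene with the largest difference. Of the 45 genes, 44 passed the filter on low counts. Psmd9, a base chaperone, did not, with 5, 7 and 6 UMIs in the shControl libraries and 6, 5 and 0 in the shLmna libraries. In shLmna 2 of the 44 rose, Psme4 and Psme1 (4.55%, against 7.96% of all 8969 tested genes), and 5 fell, Psma1, Psma3, Psmd2, Psmd8 and Psmd11 (11.4%, against 5.78% of all tested genes). By the criteria that the study set for differential expression, which ask for a log2 fold change beyond 1 in either direction, a mean normalized count over 5 and the same adjusted p, Psme4 was the 1 gene that was higher (2.27%, against 3.97% of tested genes), and 0 were lower, against 1.74%. The 3 shLmna libraries lay above all 3 shControl libraries for 3 genes (6.82%, against 16.8% of tested genes), Psme1, Psme2 and Psme4, and below them for 8 genes (18.2%, against 15.7%), Psmc1, Psmc3, Psmc4, Psmc6, Psmd4, Psmd8, Psmd11 and Psmf1. At an unadjusted p below 0.05 there were 11 of the 44 proteasome genes, 3 higher and 8 lower, beside 2543 of the 8969 tested genes in both directions. The share was thus not larger among the proteasome genes. The 2543 were not split by direction, so the 8 lower genes have no matching rate here.

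**Figure D1:**
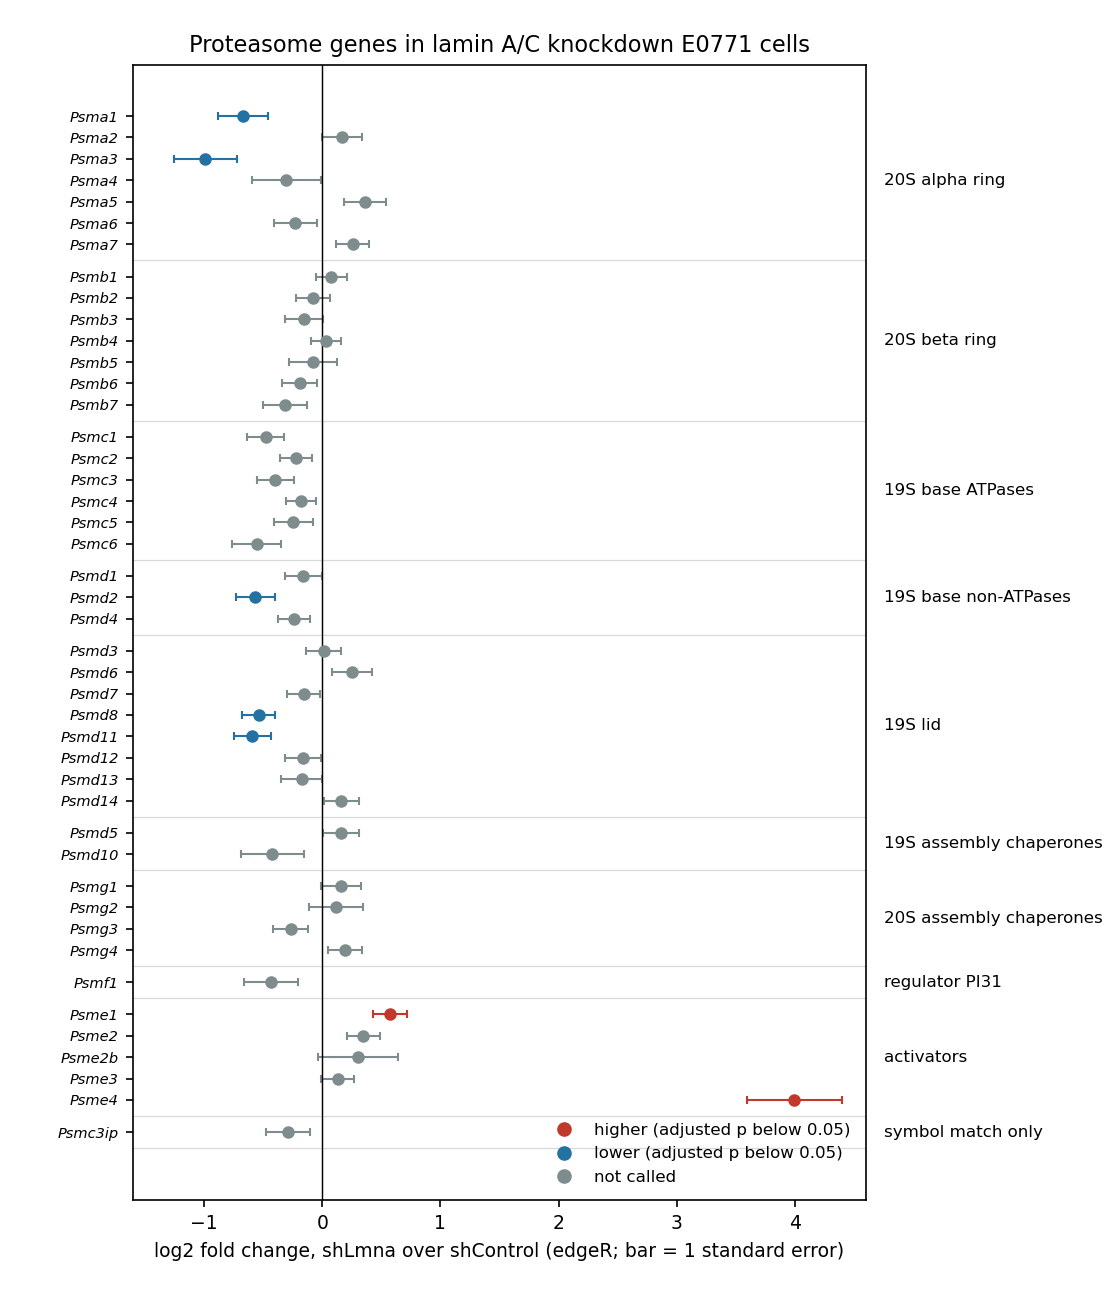
Log2 fold change of shLmna over shControl (edgeR, horizontal axis) for each of the 44 tested proteasome genes, ordered by role, with bars of 1 standard error; red marks genes that rose, blue genes that fell and grey genes that did not pass the test. Psme4 lies at 3.99, and the other 43 genes lie between -0.99 and 0.57.

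The median log2 fold change of the 44 genes was -0.16, against 0.0033 for all tested genes, with 27 estimates below 0 and 17 above it. The median size of the log2 fold change, regardless of sign, was 0.24 for proteasome genes and 0.27 for all tested genes, and for 36 of the 44 it was at most 0.5. The median standard deviation between replicates, on log2 CPM, was 0.209 for the proteasome genes, 0.238 for all tested genes and 0.177 for genes with at least 100 CPM. The 37 genes that did not pass the test had log2 fold changes of -0.55 to 0.36 with standard errors of 0.13 to 0.34. Genes such as Psmc1 at -0.48 (SE 0.16) and Psmc6 at -0.55 (SE 0.21) were among them, so that differences of this size could be missed with 3 libraries a group. No single limit follows from this, as Psmd8 passed at -0.54 (SE 0.14). Where the standard error was larger, larger differences could be missed. All proteasome genes together made up 1.46 ± 0.0334% of the library UMIs in shControl and 1.39 ± 0.0273% in shLmna (SD, n = 3), a difference of -0.0631 percentage points, and the ranges did not overlap, with 1.44% as the lowest shControl library and 1.43% as the highest shLmna library. The difference was -0.116 points of the TMM-scaled totals on which CPM rest, and -0.106 points without the 50 genes with the most UMIs.

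**Figure D2:**
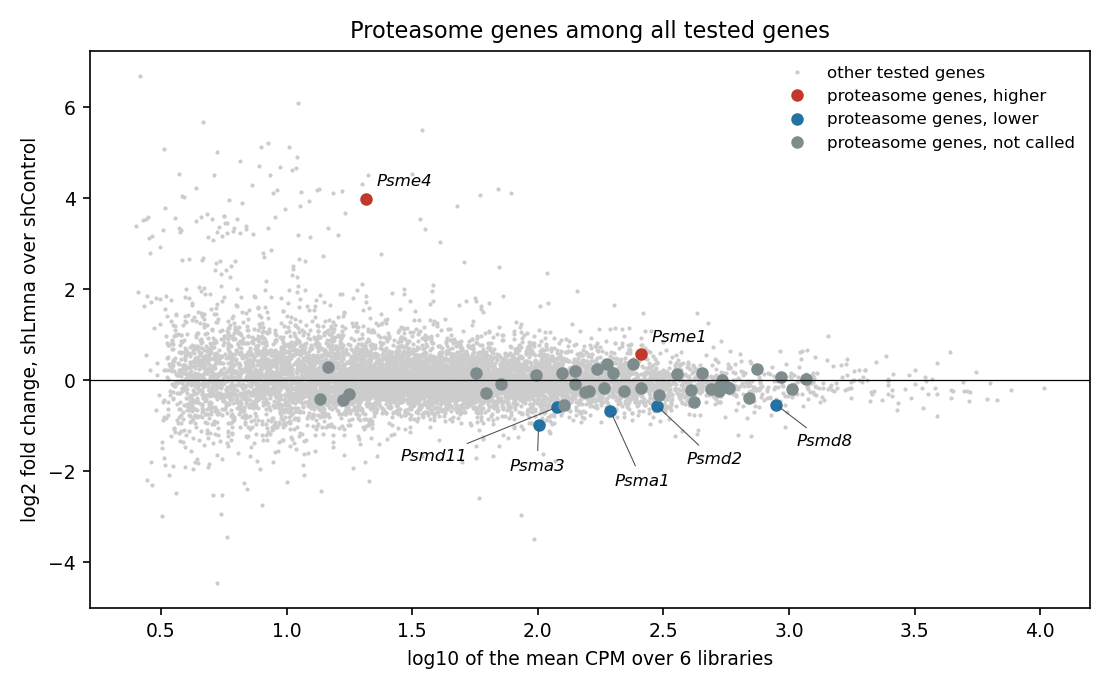
Log2 fold change of shLmna over shControl (vertical axis) against the log10 of the mean CPM over the 6 libraries (horizontal axis) for all 8969 tested genes in light grey, with the 44 proteasome genes as larger points coloured by their call. Psme4 stands among genes of low mean level, while the 5 genes that fell and Psme1 lie within the cloud of other genes at higher levels.

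The alpha ring of the 20S core held the proteasome gene that fell most. Psma3, an alpha subunit, had 193, 124 and 83.5 CPM in the shControl libraries and 68.4, 46.4 and 89.6 CPM in the shLmna libraries. The highest shLmna library thus lay above the lowest shControl library, and the 3 shControl libraries were spread widely. Its log2 fold change was -0.99 with a standard error of 0.27 (adjusted p = 0.024, edgeR), and it was not past the threshold without shControl 1 (adjusted p = 0.121), shControl 2 (0.0886), shLmna 1 (0.0815) or shLmna 2 (0.0933). Psma1, another alpha subunit, had 281, 177 and 259 CPM in shControl and 134, 114 and 204 CPM in shLmna, and here too the groups overlapped. Its log2 fold change was -0.67 with a standard error of 0.21 (adjusted p = 0.049), a value close to the threshold that passed it neither without shControl 1 (adjusted p = 0.146), shControl 3 (0.0513), shLmna 1 (0.153) or shLmna 2 (0.178), nor with upper-quartile scaling (0.0584), without the filter on low counts (0.0564) or with a filter at a mean count of 50 (0.0702). The other 5 alpha subunits did not pass the test, and the highest estimate was that of Psma5 at 0.36 ± 0.18 (SE). Of the 50-base stretches in the last 1000 bases of its transcript, 68.1% also occur in other transcripts, so that its counts are uncertain. The alpha subunits had a summed level of 1877 ± 99.9 CPM in shControl and 1939 ± 289 CPM in shLmna (SD, n = 3).

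None of the 7 beta ring genes passed the test, by edgeR's test or in any of the 15 alternative fits. By edgeR's test, 1232 of all 8969 tested genes passed in either direction. Their log2 fold changes ran from -0.32 ± 0.19 (SE) for Psmb7, which carries the trypsin-like site, to 0.08 ± 0.13 for Psmb1, a beta subunit without a proteolytic site. Psmb5, with the chymotrypsin-like site, had 57.1, 66.7 and 98.3 CPM in shControl and 75.5, 76.0 and 55.7 CPM in shLmna, and Psmb6, with the caspase-like site, had 1333, 996 and 973 CPM and 1029, 884 and 978 CPM. For all 7 beta ring genes the groups overlapped. Stretches of 50 bases were compared in the last 1000 bases of the transcript, or in all of it where shorter. For Psmb3, Psmb5 and Psmb7, 55.8%, 57.1% and 32.8% of them also occur in other annotated transcripts, so that reads may have been lost or split there. Those of Psmb7 lie in the opposite-strand gene Nek6.

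Of the 17 genes of the base and lid of the 19S cap, 0 rose and 3 fell, and of the 14 core genes 0 rose and 2 fell, beside 5.78% of all tested genes that fell. Estimates were below 0 for 14 of the 17 cap genes, for 9 of the 14 core genes and for 4448 of the 8969 tested genes. In the base, all 6 ATPases, the ring that unfolds the substrate, had estimates below 0, from -0.55 ± 0.21 (SE) for Psmc6 to -0.18 ± 0.13 for Psmc4, but 0 of 6 passed the test. At an unadjusted p below 0.05 there were 3 of the 6, Psmc1, Psmc3 and Psmc6, beside 2543 of the 8969 tested genes in both directions together. Psmc1 had 565, 502 and 394 CPM in shControl and 391.6, 340 and 318 CPM in shLmna, groups that were close to each other without overlap (log2 fold change -0.48, SE 0.16, adjusted p = 0.055). Psmc3 had 987, 719 and 668 CPM against 654, 574 and 575 CPM (-0.40, SE 0.16, adjusted p = 0.11). Of the 50-base stretches in the last 1000 transcript bases, 12.2% for Psmc1 and 12.7% for Psmc3 also occur in other transcripts. Those of Psmc3 lie in the opposite-strand gene Slc39a13. Psmc6 had 113, 131 and 212 CPM against 88.6, 108 and 113 CPM (adjusted p = 0.091), with the single high library shControl 3. For Psmc6, whose counted 3' end had the low GC content of 29.4%, the log2 fold change was -1.32 (adjusted p = 1.6e-05) once an offset for GC content was fitted. The call also depended on the libraries: without shControl 3, Psmc1 (adjusted p = 0.00878) and Psmc3 (0.0349) passed, and without shControl 1, Psmc6 did (0.0332).

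Among the non-ATPase subunits of the base, Psmd2, the docking site for ubiquitin shuttles and for Usp14, had 378, 404 and 286 CPM in shControl and 287, 236 and 199 CPM in shLmna. The groups met at the lowest shControl and the highest shLmna library. It fell, with a log2 fold change of -0.57 (SE 0.17, adjusted p = 0.037), and was not past the threshold without shControl 1 (adjusted p = 0.0878), shControl 2 (0.180), shLmna 2 (0.0992) or shLmna 3 (0.168). Of the 50-base stretches in the last 1000 bases of its transcript, 22.9% also occur in other transcripts. Psmd1, a scaffold of the base, had the highest estimate, -0.16 ± 0.16 (SE). Of the 50-base stretches in its last 1000 bases, 26.9% also occur in the overlapping Gm21972.

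In the lid, 2 of 8 genes fell, beside 5.78% of all tested genes. Psmd8 had 1180, 1064 and 919 CPM in shControl and 792, 672 and 712 CPM in shLmna, so that each shLmna library was below each shControl library (log2 fold change -0.54, SE 0.14, adjusted p = 0.020). It was not past the threshold without shControl 1 (adjusted p = 0.0859), shControl 2 (0.0901), shLmna 2 (0.0794) or shLmna 3 (0.0816). Psmd11, a lid subunit that contacts the alpha ring and helps to hold cap and core together, had 123, 156 and 153 CPM against 108, 84.4 and 93.3 CPM. Its groups did not overlap either (log2 fold change -0.59, SE 0.16, adjusted p = 0.021), and it was not past the threshold without shControl 2 (adjusted p = 0.117), shLmna 2 (0.0954) or shLmna 3 (0.0842). The highest estimate in the lid was that of Psmd6, at 0.25 ± 0.17 (SE), and the deubiquitinase Psmd14 was at 0.16 ± 0.15.

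The base and lid genes together had 7752, 7216 and 6931 CPM in the shControl libraries and 6398, 5970 and 5813 CPM in the shLmna libraries, which did not overlap. The 14 core genes together had 6483, 5894 and 6083 CPM and 5895, 5692 and 6477 CPM, which did. Within a library, where scaling has no part, UMIs of base and lid genes came to 119.6%, 122.4% and 113.9% of those of core genes in shControl and to 108.5%, 104.9% and 89.7% in shLmna, means of 118.6 ± 4.32% and 101.1 ± 9.96% (SD, n = 3). Each shLmna library was below each shControl library. Genes whose 3' ends share more than 10% of their 50-base stretches with other transcripts were then left out, which left 13 cap and 9 core genes. The ranges were 100.1 to 105.6% in shControl and 79.7 to 94.1% in shLmna. UMIs of 3' ends are not divided by transcript length, so this ratio compares libraries and does not give the number of caps per core.

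**Figure D3:**
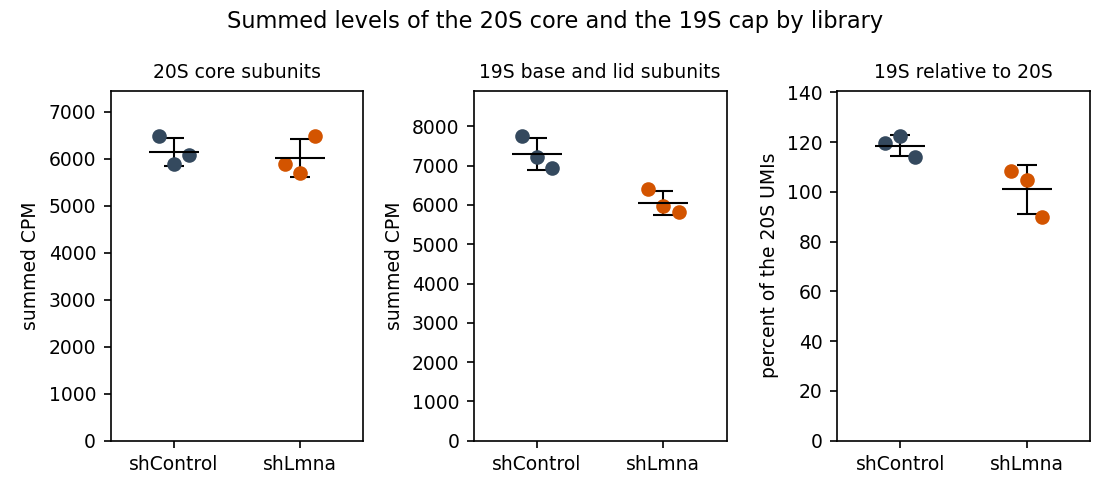
Summed CPM of the 14 core genes (left) and of the 17 base and lid genes (middle), and base and lid UMIs as a percent of core UMIs (right), for each library as a point, with the mean and SD of 3 libraries as bars. The groups overlap for the core, at 5894 to 6483 CPM and 5692 to 6477 CPM, and are apart in the other panels.

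The assembly factors did not pass the test in either direction, beside 1232 of all 8969 tested genes that did. Of the core chaperones, Psmg1, Psmg2 and Psmg4 had log2 fold changes of 0.16 ± 0.17, 0.12 ± 0.23 and 0.19 ± 0.14 (SE), and Psmg3 was at -0.27 ± 0.15. For Psmg3, 22.7% of the 50-base stretches of its transcript also occur in the overlapping Gm26938. Of the base chaperones, Psmd5 was at 0.16 ± 0.15 and Psmd10, also known as the oncoprotein gankyrin, at -0.42 ± 0.27, with 15.6 ± 2.50 CPM in shControl and 11.7 ± 2.96 CPM in shLmna (SD, n = 3). Psmf1, or PI31, which binds the core and inhibits it in vitro, had 17.2, 21.2 and 19.5 CPM in shControl and 17.2, 12.8 and 12.7 CPM in shLmna. Its groups lay next to each other without overlap, and it did not pass the test (log2 fold change -0.43, SE 0.23, adjusted p = 0.24). Psmc3ip, whose symbol matches but which is a cofactor of meiotic recombination and no proteasome subunit, was at -0.29 ± 0.19. In its last 1000 transcript bases, 35.3% of the 50-base stretches also occur in the opposite-strand gene Mlx.

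All 5 activator genes had estimates above 0, beside 4521 of the 8969 tested genes. Of the 5, 2 rose, beside 7.96% of all tested genes. Psme4 had 1, 6 and 11 UMIs in the shControl libraries and 113, 101 and 70 UMIs in the shLmna libraries. These were 0.391, 1.87 and 5.81 CPM in shControl and 42.2, 36.9 and 37.1 CPM in shLmna. The shControl libraries were near the limit of counting while the shLmna libraries were close to each other, and the groups were far apart. The log2 fold change was 3.99 with a standard error of 0.40 (adjusted p = 1.9e-05), which placed Psme4 at rank 29 by p and at rank 36 by log2 fold change among the 8969 tested genes. It was past the threshold with each library left out in turn, at log2 fold changes of 3.47 to 4.94, and in all 9 other alternative fits, at 3.91 to 4.43. Psme4 lies on chromosome 11 at 30771726 to 30880361, plus strand (GRCm38, GENCODE release M21). In its last 1000 transcript bases and the 100 bases beyond, no exon of another annotated gene overlaps it. None of the 50-base stretches of those 1000 bases occurs in another transcript. The rest of the gene was not searched.

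Psme1, the alpha subunit of PA28, had 202, 183 and 237 CPM in shControl and 311, 298 and 314 CPM in shLmna. All shLmna libraries were above all shControl libraries, and the shLmna libraries were closer to each other than the shControl libraries were. The log2 fold change was 0.57 with a standard error of 0.14 (adjusted p = 0.014). It was not past the threshold without shControl 1 (adjusted p = 0.0504), shControl 2 (0.0945) or shLmna 3 (0.0548). On the opposite strand its counted 3' end overlaps Emc9, and 15.8% of the 50-base stretches in its last 1000 bases occur in other transcripts. Psme2, the beta subunit, had 155, 172 and 173 CPM against 207, 239 and 189 CPM, groups without overlap, and did not pass the test (log2 fold change 0.35, SE 0.14, adjusted p = 0.12). Psme2b, a copy of Psme2, was low, at 12.96 ± 5.63 CPM and 16.4 ± 5.58 CPM (log2 fold change 0.30, SE 0.34). Of the 50-base stretches of Psme2 and Psme2b, 59.3% and 69.3% occur elsewhere, in each other or in Gm7928, so that reads could be split between them and both are uncertain. Psme3 had 386, 346 and 292 CPM in shControl and 375, 369 and 379 CPM in shLmna, with a log2 fold change of 0.13 ± 0.14 (SE).

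In sum the activators had 720 to 750 CPM in the shControl libraries and 941 to 953 CPM in the shLmna libraries. Relative to the UMIs of the core genes in the same library, Psme1 and Psme2 together came to 6.09 ± 0.623% in shControl and 8.67 ± 0.833% in shLmna, Psme3 to 5.54 ± 0.649% and 6.23 ± 0.333%, and Psme4 to 0.0444 ± 0.0461% and 0.646 ± 0.0717% (SD, n = 3). Psme4 was thus the activator with the largest ratio between groups and also the one with the fewest UMIs in shControl.

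**Figure D4:**
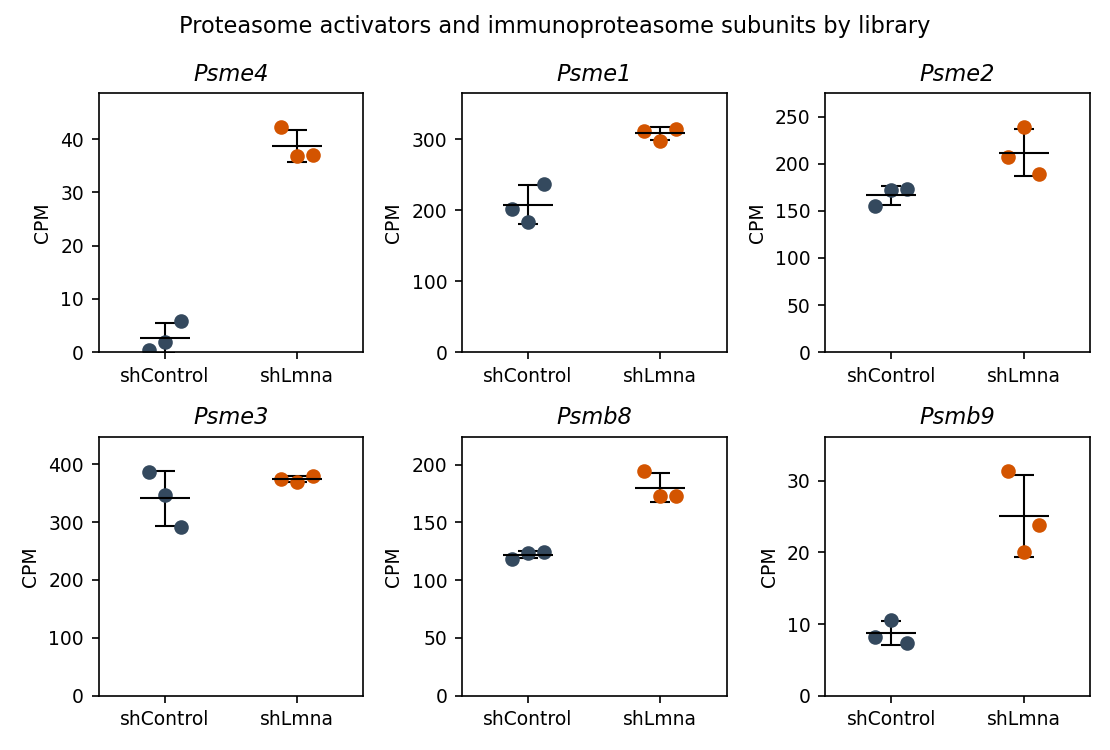
CPM (vertical axis, from 0) of 4 activator genes and of the immunoproteasome genes Psmb8 and Psmb9 in each library, with the mean and SD of 3 libraries as bars. For Psme4 the shControl libraries lie at 0.391 to 5.81 CPM and the shLmna libraries at 36.9 to 42.2 CPM, and Psme3 is the panel in which the groups overlap.

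The immunoproteasome genes, which replace the proteolytic beta subunits after interferon exposure, rose in 2 of 3 cases, beside 7.96% of all tested genes. Psmb9 had 8.21, 10.6 and 7.39 CPM in shControl and 31.4, 20.1 and 23.9 CPM in shLmna (log2 fold change 1.49, SE 0.26, adjusted p = 0.0016), and it passed with each library left out. Psmb8 had 118, 123 and 124 CPM against 195, 173 and 173 CPM (0.56, SE 0.14, adjusted p = 0.013), and did not pass without shControl 1 (adjusted p = 0.0506), shControl 2 (0.0635) or shLmna 1 (0.0579). In both genes the groups were apart. Psmb10 was at 0.13 ± 0.15 (SE, adjusted p = 0.62). Of 7 tested genes of interferon-inducible antigen processing, 1 rose, beside 7.96% of all tested genes, and 0 fell. The median log2 fold change of this list was 0.012, with 4 estimates above 0 and 3 below. The gene that rose was the peptide transporter subunit Tap1 (log2 fold change 0.62, SE 0.17, adjusted p = 0.022). Tap1 did not pass without shControl 1 (adjusted p = 0.0522), shControl 2 (0.131), shLmna 1 (0.0736), shLmna 2 (0.0869) or shLmna 3 (0.0509). B2m was at -0.57 (SE 0.22, adjusted p = 0.103), in groups that overlapped.

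Of the 7 tested genes of the NRF1 pathway, 1 rose and 0 fell, beside 7.96% and 5.78% of all tested genes. Nfe2l1 itself had 126, 117 and 102 CPM in shControl and 175, 175 and 168 CPM in shLmna. The groups were apart, with a log2 fold change of 0.58 (SE 0.14, adjusted p = 0.013), and the gene did not pass without shControl 2 (adjusted p = 0.0642). The median log2 fold change of this list was -0.05. Of 10 tested proteasome components with other symbols, 2 fell, beside 5.78% of all tested genes. Zfand2a, a stress-induced protein that binds the 19S cap, had 123, 126 and 104 CPM against 44.1, 49.3 and 55.1 CPM (-1.26, SE 0.16, adjusted p = 0.00014) and passed with each library left out. Usp14, a deubiquitinase on the cap, was counted with 33, 24 and 11 UMIs in shControl and 0, 9 and 2 UMIs in shLmna (-2.52, SE 0.60, adjusted p = 0.013), and did not pass without shControl 1 (adjusted p = 0.0620), shControl 2 (0.0599), shLmna 1 (0.0511) or shLmna 3 (0.0840). Pomp, the maturation factor of the core, was at -0.15 ± 0.13 (SE, adjusted p = 0.48). Of 4 tested ubiquitin and E1 enzyme genes and 5 tested ubiquitin shuttle receptors, 0 passed.

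Markers of other cell types were low throughout. Of the leukocyte markers, 2 of 6 were in the table, and their summed level was 15.3 to 17.2 CPM in shControl and 18.3 to 24.3 CPM in shLmna, with Ptprc, which defines leukocytes, not among the genes listed. One of them, Lyz2, rose (log2 fold change 1.28, adjusted p = 0.011), but not without shControl 1 (adjusted p = 0.0520). The other, Cd68, had the opposite sign and did not pass the test (-0.62, SE 0.33, adjusted p = 0.23). Of the fibroblast markers, 4 of 6 were in the table, and their sum was 18.5 to 18.8 CPM in shControl and 27.0 to 30.7 CPM in shLmna. Pdgfrb rose among them (0.74, adjusted p = 0.046), a call that no fit with a library left out kept, at adjusted p of 0.0802 to 0.138, and Pdgfra was at 0.04 ± 0.34 (SE). Of the endothelial markers 1 of 4 was in the table, at 0.623 to 3.17 CPM and 0.747 to 2.12 CPM. The part of these markers in the differences of Psme1, Psme4 and the immunoproteasome genes was not tested.

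**Figure D5:**
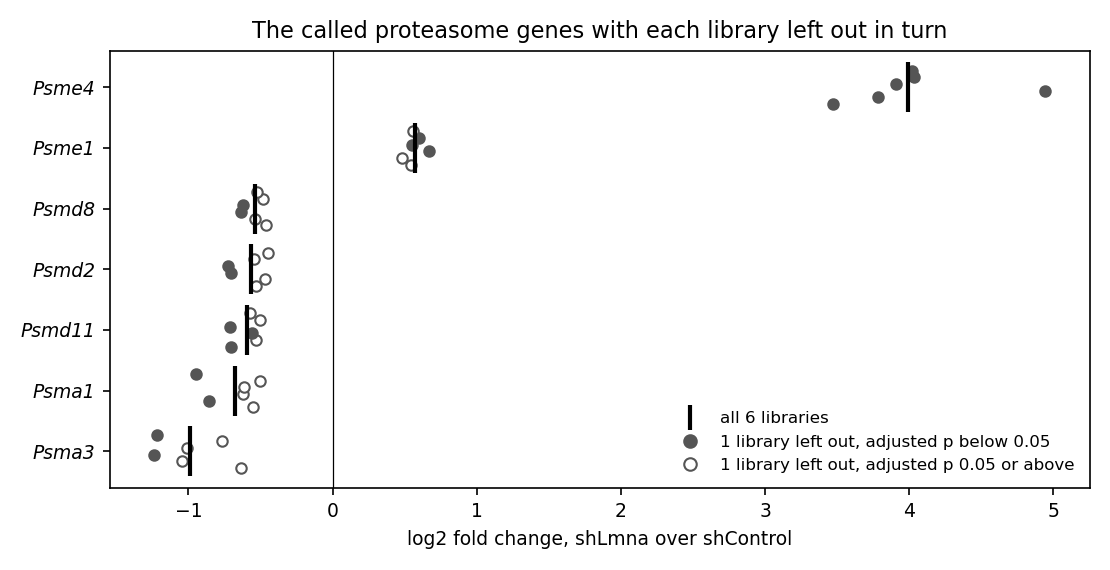
Log2 fold change of shLmna over shControl (horizontal axis) for the 7 proteasome genes that rose or fell, with all 6 libraries (vertical bar) and after leaving out 1 library at a time (circles, filled where the adjusted p was below 0.05). Psme4 is past the threshold in all 6 such fits, Psme1 and Psmd11 in 3, and Psma1, Psma3, Psmd2 and Psmd8 in 2.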

How the data were processed

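RNA of 3 shControl and 3 shLmna E0771 samples was measured by bulk MARS-seq. The authors trimmed reads with Cutadapt, mapped them to mm10 with STAR 2.4.2a and counted UMIs with a modified HTSeq-count over the 3' end of each RefSeq gene (1000 bases, with 100 more beyond the end). The strand setting of the counting is not given in the sources used here. The deposited table gives these UMI counts unscaled for 10520 genes, each with at least 6 UMIs in its highest library. The authors also deposited values corrected with ComBat and a DESeq2 table of fold changes and p-values, and neither was used.

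Groups came from the sample labels. The fit was made in edgeR 4.0.16 (R 4.3.3) with filterByExpr at a minimum count of 10, TMM factors, the quasi-likelihood test and Benjamini-Hochberg adjustment. A standard error is the absolute log2 fold change divided by the square root of the F statistic, and log2 CPM for the replicate spread had a pseudocount of 1. The smallest p of an exact permutation test with 3 libraries a group is 0.1, so single genes were tested only by fits across all genes. The fits were tested on simulated counts with known fold changes, each larger in size than that of any called proteasome gene except Psme4. That test did not cover differences as small as those of the other called genes. Alternatives were DESeq2 1.42.0, limma-voom (limma 3.58.1), RLE and upper-quartile scaling, no filter, a filter at a mean count of 50, the replicate number as a block, a loess offset (span 0.3) for GC content of the 3' end, this offset with the block, and leaving out each library. Those for the ratio of cap to core and for genes outside the symbol rule were chosen after seeing the data. GENCODE M21 (GRCm38) gave coordinates and 3' ends, with a transcript for 10466 genes. Shared 50-base stretches were sought in the last 1000 bases of the transcript, or in all of it where shorter. Overlaps were sought in those bases and 100 more beyond the end. RefSeq promoters, without those on chromosome 18, matched 38 of the 45 genes. Plots were drawn with matplotlib 3.10.9, and tables with pandas 2.3.3 and numpy 2.4.6 in Python 3.11.15.

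The proteasome genes and all lists were chosen with earlier results of these data known. Genes were named by rule: each proteasome gene with an adjusted p below 0.05, each activator, assembly factor, Psmf1 and Psmc3ip, the highest and lowest estimate in each other role, Lmna, and, of related lists, genes with an adjusted p below 0.05, Nfe2l1, Pomp and the immunoproteasome genes. Psmb3, Psmb5, Psmb6, Psmc1, Psmc3, Psmd12, Psmd14, the genes with groups apart, B2m, Krt8, Krt18, Epcam, Cd68, Pdgfra and the genes near Psme4 were named outside the rule, after their values were seen. Pairs of replicates of a group differed by more than sampling noise, so each library counted as 1 replicate.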

Additional observations from a re-analysis of the deposited data

How the results depend on the processing

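The directions of the 7 proteasome genes that rose or fell were the same in all 15 alternative fits. The counts of 2 genes that rose and 5 that fell stayed within 1.5 times in the 9 fits that used all 6 libraries, with 2 and 4 to 7 genes. The number past the study's criteria was 1, and 3 with the GC offset as well as with the GC offset and the replicate block, where Psma3 and Psmc6 joined Psme4; the cause was not tested. Leaving out 1 library gave 1 to 2 genes that rose, 0 to 6 that fell, 1 to 2 past the criteria, and a median log2 fold change of -0.17 to -0.10. These fits have 5 libraries and called 540 to 1580 genes in all, against 1232. Without shLmna 2, 0 proteasome genes fell. Outside these fits, Psma1 lost its call in 3, Psmc1 gained one with DESeq2, the block, and the GC offset with the block, and Psmc6 gained one with the block and both GC fits.

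The difference in the share of library UMIs was -0.0631 percentage points, -0.106 without the 50 genes with the most UMIs and -0.116 of TMM-scaled totals, and -0.0785 to -0.0438 with 1 library left out. The difference in cap UMIs as a percent of core UMIs, -17.6 points, ran from -21.3 to -11.9 with 1 library left out and was -13.4 without genes that share stretches.

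Whether the replicate numbers pair the libraries could not be settled. The correlations of deviations between same-numbered libraries were 0.35, -0.11 and 0.0052, and not every library correlated best with its own number. Deviations were taken from the mean of the 3 libraries of a group, so these correlations constrain one another. With the replicate block 2 proteasome genes rose and 7 fell, with a median log2 fold change of -0.17, and 1350 genes were called in all. Depth limits Psme4 in shControl (1 to 11 UMIs), Psmd9 and Usp14, and 3 libraries a group limit the detection of small differences.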

Other observations

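The neighbourhood of Psme4 was looked at after its values were seen. Within 2 Mb on chromosome 11 (RefSeq, GRCm38.p6), 17 other genes were tested, of which 2 rose and 0 fell. Among all 8969 tested genes, 7.96% rose and 5.78% fell. Pnpt1, the mitochondrial polynucleotide phosphorylase, had 6.40 ± 1.74 CPM in shControl and 111 ± 12.2 CPM in shLmna (SD, n = 3), with a log2 fold change of 4.08 (adjusted p = 3.6e-08, edgeR). Cpeb4, a regulator of polyadenylation in the cytoplasm, had 2.70 ± 2.24 CPM and 8.61 ± 3.03 CPM (1.83, adjusted p = 0.021). Pnpt1 passed the test with each library left out, while Cpeb4 passed in 2 of these 6 fits, with an adjusted p of up to 0.159. Cpeb4 also did not pass with the GC offset (log2 fold change 1.01, adjusted p = 0.116) or with the GC offset and the replicate block (1.03, adjusted p = 0.153), so that 1 of the 2, Pnpt1, rose in each of these fits. The tested genes nearest to Psme4, Acyp2 and Chac2, were at 0.37 ± 0.43 and 0.67 ± 0.34 (SE) and did not pass the test.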
